A study of Rattus norvegicus with 3 samples.

Results

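The enzymes of glycolysis and the citric acid cycle were followed across 3 arrays of rat cerebellar cortex. They were 33 genes chosen by name, from hexokinase to malate dehydrogenase, and each was read from the array probes whose RefSeq accession carries its rat gene symbol. All 33 were found among the 16654 named genes on the array, Pcx under its present symbol Pc.

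The contralateral group was the left and the ipsilateral group the right cerebellar cortex of male Wistar rats, 9 weeks old, taken 2 days after the right middle cerebral artery had been occluded for a time (middle cerebral artery occlusion, MCAO). The control group was the left cerebellar cortex of male Wistar rats of the same age, taken 2 days after a sham operation that exposed the right common carotid artery and did not open it. Each group was 1 array of RNA from the pooled tissue of 4 rats, both MCAO sides came from the same 4 rats, and MCAO rats had been kept by a neurological score, so every difference below is one between pools and no test was possible. A stroke on 1 side of the cerebrum can leave the cerebellum of the other side less perfused and less active in metabolism. This remote effect is crossed cerebellar diaschisis, which the comparison addresses.

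Glycolysis splits glucose into pyruvate in the cytosol and yields a little ATP. Lactate dehydrogenase interconverts pyruvate and lactate, while the pyruvate dehydrogenase complex and pyruvate carboxylase bring pyruvate into the mitochondrial citric acid cycle, which oxidises it and feeds the respiratory chain. In the brain, glucose is the main fuel, and neurons and astrocytes are known to differ in the isoenzymes they use.

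The arrays carried 58717 spots that are not controls, of which 42470 were well above background on the contralateral, 43028 on the ipsilateral and 43283 on the control array. Values are log2 signals after a shift that brings the arrays to a common 75th percentile, and a log2 ratio of 1 is a doubling. The error given with a ratio is the scanner software's own error of the spots, a log2 value of about 0.20 for a bright spot, and it covers neither rats nor hybridisations. A gene is called detected if all its probes were well above background by the scanner's rule on each array, and all 33 enzymes were. Their probes numbered 53 with 138 spots, and 21 enzymes rested on 1 spot. Signals depend on the probe, so they are compared between arrays and not between genes.

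None of the 33 enzymes had a log2 ratio beyond 1 in any comparison. In the contralateral cerebellar cortex, 2 enzymes were above 0.25 relative to the control group, Pfkl and Hk2, and 1, Ldha, was below -0.25. In the ipsilateral cerebellar cortex Hk2 was above 0.25, and no enzyme was below -0.25. The remaining 30 enzymes contralaterally and 32 ipsilaterally lay within 0.25 of the control group. The median log2 ratio of the 33 enzymes was 0.014 in the contralateral and 0.0062 in the ipsilateral cerebellar cortex, and it was -0.0014 for the contralateral against the ipsilateral side. These 3 medians turned sign in 5, 6 and 8 of the 11 alternative settings.

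For comparison, 13354 named genes gave signal well above background from some probe on some array. Of these, 12.7% were above 0.25 and 17.8% below -0.25 in the contralateral to control comparison, and 5.47% were beyond 1. In the ipsilateral to control comparison the shares were 20.2%, 13.6% and 7.1%. Their median log2 ratios were -0.00010 and 0.026. Many of these genes are dim, and dim spots scatter more. Among the 5801 named genes at least as bright, in the mean over the arrays, as the second dimmest enzyme, a comparison added after the data had been seen, 11.5% lay beyond 0.25 contralaterally and 12.4% ipsilaterally. The 32 enzymes of that brightness, all but Hk2, had 2 and 0 beyond 0.25. The interquartile range of the 33 contralateral ratios was 0.12, against 0.17 for the brighter genes. The brighter genes share only the floor with the enzymes, most of which lie far above it, and were not matched to them. The part of brightness in these differences was not tested.

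**Figure D1:**
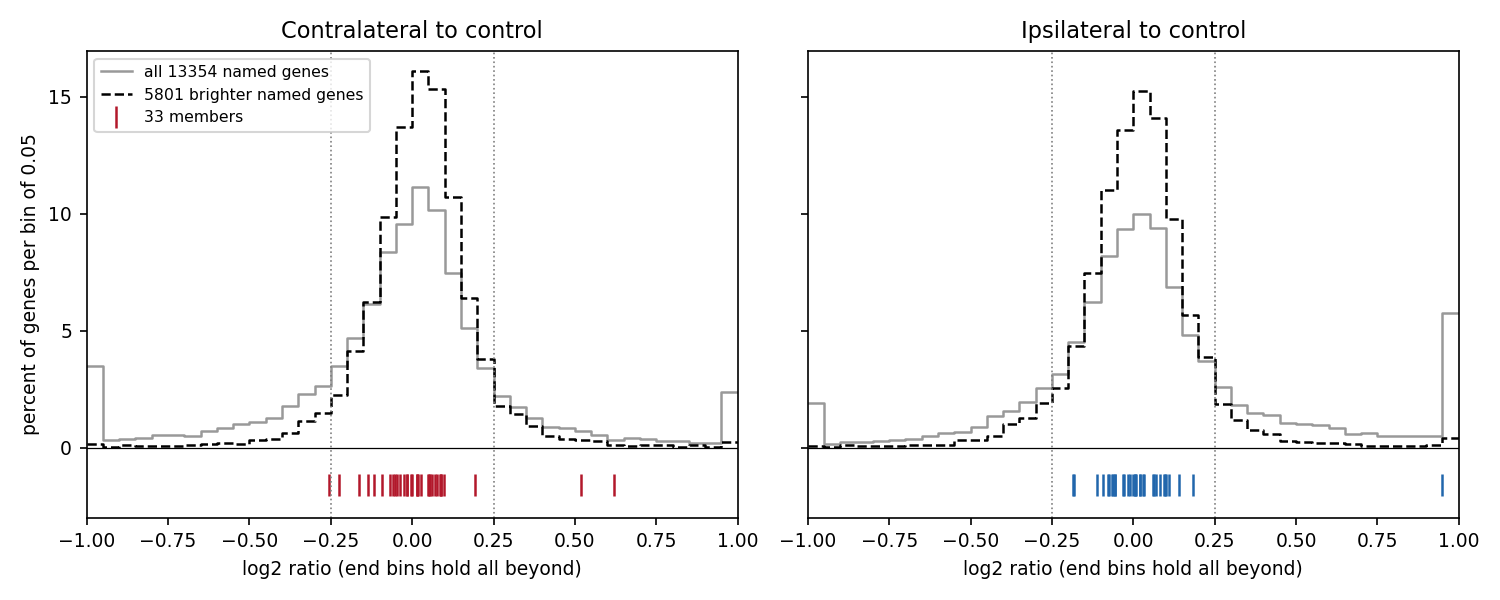
Distribution of the log2 ratio to the control array over all 13354 named genes (solid line) and over the 5801 brighter ones (dashed line), in percent of genes per bin of 0.05, for each side. The coloured ticks are the 33 enzymes, of which 30 (contralateral) and 32 (ipsilateral) lie between the dotted lines at -0.25 and 0.25.

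The size of such ratios depends on the scaling. Without scaling, the median of all named genes was -0.15 in the contralateral and -0.51 in the ipsilateral comparison, and with scaling to spike-in probes it was -0.085 and -0.22. The median of the 33 enzymes moved with it, to -0.14 and -0.53 without scaling and to -0.070 and -0.24 with spike-in probes. Relative to all named genes, the enzymes' median differed by 0.015 contralaterally and by -0.020 ipsilaterally under these scalings and the one used here, as a common factor per array leaves it. Between the sides, the median of all named genes was 0.37 without scaling and 0.15 with spike-in probes. With normexp and with 50 added to each signal, all named genes had an ipsilateral median of 0.12 and the enzymes -0.012 and 0.0051. A ratio within an array shows unequal change. Directions given below are those under the common 75th percentile. Without scaling, every ratio to control is lower by 0.15 on the contralateral side and by 0.53 on the other, and with spike-in probes by 0.084 and 0.25, so that smaller ratios above 0 turn negative there. Over all settings, the contralateral ratio kept its sign above 0 for Hk2, Pfkl and Fh and below 0 for Hk1, Gpi, Pfkp, Gapdh, Pgam1, Eno1, Ldha, Dlat and Cs. The ipsilateral ratio kept it above 0 for Hk2 and below 0 for Gpi, Pfkp, Tpi1, Gapdh, Pgam1, Eno1, Eno2, Ldha, Cs, Idh3a and Ogdh. For every other enzyme the sign turned in at least 1 setting. Ratios to control below 0 cannot turn without scaling or with spike-in probes, so a kept sign says less for them than for ratios above 0.

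The preparatory steps of glycolysis, which spend ATP to make triose phosphates, had 8 enzymes with a median log2 ratio of -0.021 in the contralateral and -0.013 in the ipsilateral cerebellar cortex, both above 0 with scaling to the median. Their members lay furthest apart. Pfkl encodes the liver-type subunit of phosphofructokinase, the enzyme that commits sugar to glycolysis. Its scaled log2 signal was 8.30 on the control array, 8.92 on the contralateral array and 8.44 on the ipsilateral array. The contralateral array thus stood above the other 2, with a log2 ratio of 0.62 to the control and 0.48 to the ipsilateral array and an error of 0.20 for each. The ipsilateral ratio of 0.14 was smaller than its error and turned negative without scaling and with spike-in probes. Pfkl was read from 1 spot, on which the processed signal was 1.18 times the median pixel signal less background on the contralateral array, 1.04 times on the ipsilateral and 1.03 times on the control array. Among the 39766 spots that were above background throughout, 3.78% had a higher quotient on the contralateral array. With the median pixel signal the contralateral log2 ratio was 0.41, and with background correction by normexp it was 0.38.

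Hexokinase phosphorylates glucose on entry into the cell, and Hk2 is the isoenzyme of muscle and of many dividing cells. Its scaled log2 signal was 3.70 on the control, 4.22 on the contralateral and 4.65 on the ipsilateral array, from 1 dim spot. The log2 ratio was 0.52 with an error of 0.35 on the contralateral side and 0.95 with an error of 0.35 on the ipsilateral side, and -0.43 with an error of 0.31 between the sides. Both MCAO arrays were above the control array under every setting tried, but with 50 added to each signal the ratios were 0.24 and 0.63. In processed units before scaling, the spot read 15.2, 19.6 and 20.3 on the control, contralateral and ipsilateral arrays. Hk1, the main brain hexokinase, had ratios of -0.059 and -0.010, the latter above 0 with scaling to the median and with 50 added.

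Pfkp, the platelet-type phosphofructokinase subunit, had the lowest ratios of these steps on both sides, from a scaled log2 signal of 15.04 on the control, 14.81 on the contralateral and 14.85 on the ipsilateral array. The log2 ratios of -0.23 and -0.18, each with an error of 0.20, kept their sign under every setting. Pfkm, the muscle-type subunit, had ratios of 0.086 and 0.094, both below 0 without scaling and the latter also with spike-in probes, so that the difference between Pfkp and Pfkm was -0.31 contralaterally and -0.28 ipsilaterally, about its error of 0.29 and independent of a common scaling factor. The difference between Pfkl and Pfkm was 0.53 on the contralateral side, with the same error, and 0.048 on the ipsilateral side. Gpi, Aldoa and Tpi1, which carry hexose phosphate on to the triose phosphates, lay between -0.074 and -0.015 in both comparisons, with Aldoa on both sides and Tpi1 on the contralateral side above 0 in some settings.

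**Figure D2:**
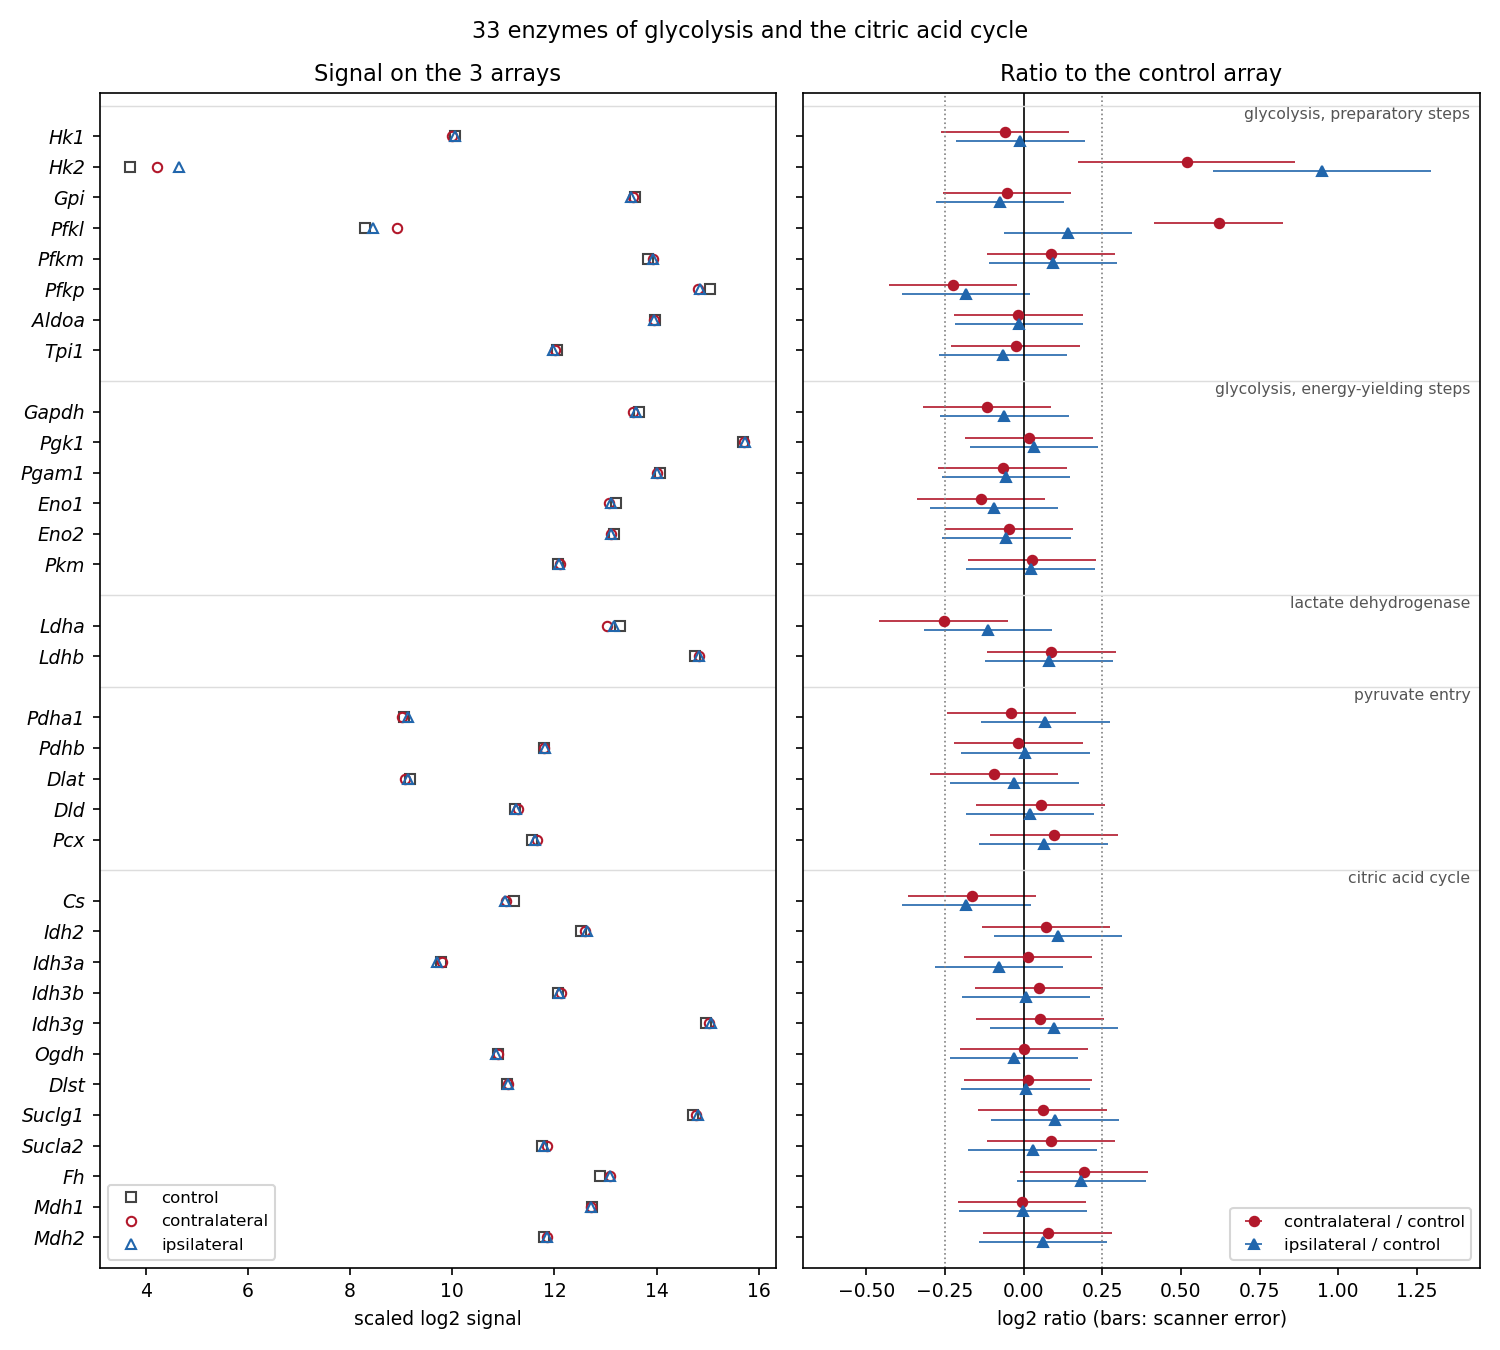
Left, scaled log2 signal of the 33 enzymes on the control (squares), contralateral (circles) and ipsilateral (triangles) array. Right, log2 ratio of each MCAO side to the control array with the scanner's error as bars and dotted lines at -0.25 and 0.25; Hk2, Pfkl and Ldha are the enzymes past a line, and 1 array per group gives no spread between samples.

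The energy-yielding steps, from glyceraldehyde phosphate to pyruvate, had 6 enzymes with medians of -0.057 contralaterally and -0.056 ipsilaterally, and none beyond 0.25. Eno1, the ubiquitous enolase, was lowest on both sides, and its scaled log2 signal was 13.20 on the control, 13.06 on the contralateral and 13.11 on the ipsilateral array. The ratios were -0.14 and -0.094, below the scanner error of 0.20, although 3 different probes with 9 or 10 spots each gave -0.12, -0.17 and -0.12 on the contralateral side. On 2 of these 3 probes the contralateral spots all lay below the control spots. Eno2, the neuronal enolase, had a signal of 13.16, 13.11 and 13.10 on the same arrays and ratios of -0.047 and -0.055, the former above 0 on its brighter probe.

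Gapdh, which makes the first NADH of the pathway, had a scaled log2 signal of 13.66 on the control, 13.54 on the contralateral and 13.60 on the ipsilateral array. Its 8 probes gave log2 ratios from -0.19 to -0.074 on the contralateral and from -0.12 to -0.030 on the ipsilateral side, all below 0 and all smaller than the scanner error. Near-identical copies of Gapdh exist in rodent genomes, and a probe could read them as well. Pgk1, which makes the first ATP of these steps, had a scaled log2 signal of 15.70, 15.72 and 15.73 on the control, contralateral and ipsilateral arrays. Pkm, pyruvate kinase, had one of 12.07, 12.102 and 12.097, and its 4 probes lay from -0.014 to 0.046 on the contralateral side. Pgam1 had ratios of -0.067 and -0.056. For Pgk1 and Pkm the ratios were at most 0.032 and turned sign without scaling, with spike-in probes, with the deposited values and, in part, in further settings.

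**Figure D3:**
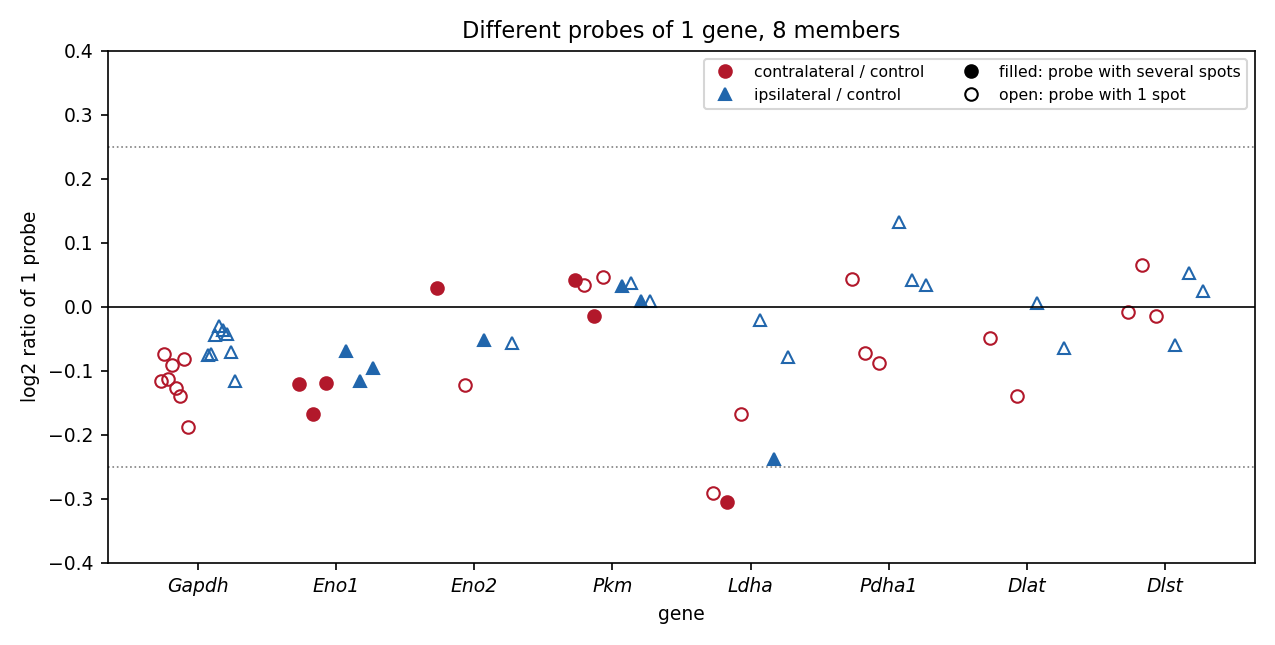
Log2 ratio to the control array of each probe of the 8 enzymes with more than 1 probe, for the contralateral (circles) and the ipsilateral (triangles) side; filled symbols are probes with several spots. All 8 Gapdh probes and all 3 probes each of Eno1 and Ldha lie below 0, and the widest spread is 0.15 contralaterally, for Eno2, and 0.22 ipsilaterally, for Ldha.

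The lactate dehydrogenase subunits went apart. Ldha encodes the A subunit, which favours lactate production, and Ldhb the B subunit, which prevails in tissues that use lactate. The scaled log2 signal of Ldha was 13.29 on the control, 13.03 on the contralateral and 13.17 on the ipsilateral array, a log2 ratio of -0.255 for the contralateral and -0.11 for the ipsilateral side with an error of 0.20. The contralateral value lies just past -0.25, and Ldha was not past it with the median pixel signal (-0.245), with normexp (-0.245) and with scaling to the median (-0.22). The 3 probes of Ldha gave -0.29, -0.31 and -0.17 on the contralateral side and -0.021, -0.24 and -0.079 on the ipsilateral side, so that they differed more on the ipsilateral side. On the probe with 8 spots, the spots of each MCAO array all lay below those of the control array. Ldhb had a scaled log2 signal of 14.75 on the control, 14.84 on the contralateral and 14.83 on the ipsilateral array, with ratios of 0.088 and 0.081, both below 0 without scaling and the latter also with spike-in probes and quantile normalization. The difference between Ldhb and Ldha, which a common scaling factor leaves as it is, was 0.34 contralaterally and 0.19 ipsilaterally with an error of 0.29, and 0.31 to 0.38 and 0.10 to 0.19 over the alternatives.

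Promoters were searched on both strands for ACGTG, a form of the core that hypoxia-inducible factor binds. Many glycolytic genes are known to carry this core. RefSeq promoters of the GRCr8 assembly, 250 bases before to 50 after the gene start, were matched for 30 of the 33 enzymes; Pgk1, Pcx and Idh3a were not matched. Of these 30, 11 held ACGTG at least once, which is 36.7%, against 19.7% of all 27457 promoters and 23.7% of the 10912 promoters that belong to the named genes with signal. The promoters of Ldha, Hk2 and Pfkl, the enzymes past 0.25, and of Ldhb are shown so that the subunits can be compared, with each match on either strand in capitals. The Ldha promoter lies on the plus strand at chr1:106507842-106508141, that of Ldhb on the minus strand at chr4:177177359-177177658, that of Hk2 on the minus strand at chr4:116841226-116841525 and that of Pfkl on the plus strand at chr20:10663715-10664014.
Ldha: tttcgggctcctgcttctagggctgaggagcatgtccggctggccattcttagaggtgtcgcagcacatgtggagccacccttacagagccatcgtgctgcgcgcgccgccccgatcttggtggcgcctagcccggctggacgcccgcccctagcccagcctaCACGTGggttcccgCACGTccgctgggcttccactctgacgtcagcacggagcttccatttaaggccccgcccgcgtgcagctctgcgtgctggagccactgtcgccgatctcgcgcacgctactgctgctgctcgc
Ldhb: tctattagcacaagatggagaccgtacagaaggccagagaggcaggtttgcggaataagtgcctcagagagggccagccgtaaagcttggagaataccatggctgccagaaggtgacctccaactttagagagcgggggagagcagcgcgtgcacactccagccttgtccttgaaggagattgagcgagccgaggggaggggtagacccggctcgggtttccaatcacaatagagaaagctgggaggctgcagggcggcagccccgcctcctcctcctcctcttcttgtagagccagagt
Hk2: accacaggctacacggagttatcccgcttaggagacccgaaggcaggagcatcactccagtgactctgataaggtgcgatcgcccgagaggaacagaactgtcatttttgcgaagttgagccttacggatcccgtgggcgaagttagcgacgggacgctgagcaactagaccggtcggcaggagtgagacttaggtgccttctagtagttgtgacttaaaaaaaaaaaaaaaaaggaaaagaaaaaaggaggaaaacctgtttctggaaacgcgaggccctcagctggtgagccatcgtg
Pfkl: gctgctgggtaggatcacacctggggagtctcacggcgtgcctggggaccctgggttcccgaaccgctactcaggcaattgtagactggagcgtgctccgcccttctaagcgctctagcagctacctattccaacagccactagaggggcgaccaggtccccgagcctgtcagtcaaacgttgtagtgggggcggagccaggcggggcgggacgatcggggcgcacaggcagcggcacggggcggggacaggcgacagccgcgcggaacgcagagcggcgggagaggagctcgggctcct
Ldha holds CACGTG, which counts as a match on each strand, starting 87 bases before the gene start, and a further match starting 73 bases before it. No match to ACGTG is in the other promoters shown, and other forms of the core, such as GCGTG, were not searched. CACGTG, which contains ACGTG, is in 3 of the 30 promoters, in 6.65% of all promoters and in 8.61% of those of named genes with signal.

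Pyruvate entry had 5 genes with medians of -0.017 contralaterally and 0.020 ipsilaterally, and all lay within 0.11 of 0 in each comparison. The contralateral median was above 0 on the brightest probes, under normexp and when scaled to the median, and the ipsilateral one below 0 without scaling, with spike-in probes and with the deposited values. Pcx, pyruvate carboxylase, which replenishes the cycle and in brain belongs to astrocytes, had the highest contralateral ratio, 0.097, which was below 0 without scaling, with a scaled log2 signal of 11.56 on the control, 11.66 on the contralateral and 11.62 on the ipsilateral array. Dlat, the acetyltransferase of the pyruvate dehydrogenase complex, was lowest, with 9.17, 9.07 and 9.14, and its ipsilateral ratio of -0.030 was above 0 with 50 added and on its brighter probe. Pdha1, the catalytic subunit that kinases switch off, had a signal of 9.06, 9.03 and 9.13, and its 3 probes lay from -0.087 to 0.044 on the contralateral side, so that its sign differed between probes. Dld, the shared dehydrogenase subunit, had 11.23, 11.29 and 11.25, both ratios below 0 without scaling and with spike-in probes and the ipsilateral one also with the deposited values. Pdhb, the partner subunit of Pdha1, had ratios of -0.017, above 0 with scaling to the median, and 0.0059, below 0 in 5 of the settings. No difference among these genes exceeded the scanner error.

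The citric acid cycle had 12 genes with medians of 0.051 contralaterally and 0.019 ipsilaterally, none beyond 0.25. Of the 12, 10 were above 0 contralaterally and 8 ipsilaterally, while 9 of the 14 glycolytic enzymes were below 0 on each side. Of the 13354 named genes 6675 were above 0 on the contralateral side and 7338, which is 54.9%, on the ipsilateral side, and of the brighter genes 58.8% and 55.0%, so that the cycle's 66.7% on the ipsilateral side was not far from theirs. The cycle's median exceeded that of the 14 glycolytic enzymes by 0.087 contralaterally and 0.053 ipsilaterally. A common factor per array, as in 4 of the 11 alternatives, and the restriction to detected genes leave this difference as it is. In the other 6 it was 0.072 to 0.089 and 0.052 to 0.092, and no error of such a median was estimated. Both of the cycle's medians were below 0 without scaling and with spike-in probes, and the ipsilateral one also with quantile normalization (-0.011) and with the deposited values (-0.039). Both comparisons use the same control array.

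Fh, fumarase, was the highest gene of the cycle on both sides, and the scaled log2 signal was 12.90 on the control, 13.09 on the contralateral and 13.08 on the ipsilateral array, with ratios of 0.19 and 0.18 and an error of 0.20. The ipsilateral ratio turned negative without scaling and with spike-in probes. Cs, citrate synthase, which joins acetyl-CoA to oxaloacetate and opens the cycle, was the lowest. Its signal was 11.22 on the control, 11.05 on the contralateral and 11.04 on the ipsilateral array, and the ratios of -0.16 and -0.18 kept their sign under every setting. Both spots of the Cs probe on each MCAO array lay below both spots on the control array.

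The isocitrate dehydrogenases release the first carbon dioxide of the cycle. The catalytic subunit gene Idh3a had a scaled log2 signal of 9.78 on the control, 9.80 on the contralateral and 9.70 on the ipsilateral array, the widest gap of the cycle between the sides at 0.093. Idh3g, a regulatory subunit gene, had 14.97, 15.02 and 15.07, and Idh3b had ratios of 0.050 and 0.0085. Idh2, the mitochondrial enzyme that makes NADPH, had 0.071 and 0.11. All these ratios of Idh3g, Idh3b and Idh2 were below 0 without scaling and with spike-in probes, that of Idh3g on the contralateral side also with quantile normalization, and that of Idh3b on the ipsilateral side in 6 settings. The remaining genes, Ogdh and Dlst of the oxoglutarate dehydrogenase complex, Suclg1 and Sucla2 of succinyl-CoA synthetase, and the malate dehydrogenases Mdh1 of the cytosol and Mdh2 of the mitochondria, lay between -0.031 and 0.099 in both comparisons. All differences in this paragraph are smaller than the scanner error.

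Between the sides of the MCAO group, the enzymes lay closer together. In the contralateral to ipsilateral comparison, 1 enzyme, Pfkl, was above 0.25 and 1, Hk2, below -0.25, against 6.11% and 19% of the 13354 named genes. Pfkl was not past it with normexp (0.23), nor Hk2 without scaling (-0.049) or with quantile normalization (-0.079). Beyond 1 there were none, against 6.79%. Of the 5801 brighter genes 2.14% lay beyond 0.25, and of the 32 enzymes of that brightness 1, Pfkl. The step medians were -0.0043 for the preparatory and -0.013 for the energy-yielding steps, -0.067 for lactate dehydrogenase, -0.023 for pyruvate entry and 0.011 for the citric acid cycle. All were above 0 without scaling and with spike-in probes, which raise every ratio between the sides by 0.38 and 0.17. Those of the preparatory and the energy-yielding steps were also above 0 with scaling to the median, with quantile normalization and with the deposited values, and that of the preparatory steps with normexp and with 50 added. Dld was highest of pyruvate entry at 0.034 and Pdha1 lowest at -0.11, Eno2 was highest of the energy-yielding steps at 0.0080 and Gapdh lowest at -0.055, and Idh3g was lowest of the cycle at -0.044. Those of Pdha1, Gapdh and Idh3g were above 0 under the same 2 settings. Within an array, spots of a repeated probe had a median SD of 0.046 to 0.047 on the log2 scale.

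Precision between spots was better than the scanner's error. For the 11 enzyme probes with several spots, the standard error of a log2 ratio from the spread of spots ran from 0.012 to 0.093. On 4 of these 11 probes, for Cs, Ldha and 2 probes of Eno1, the contralateral spots did not overlap the control spots, and on 2 the ipsilateral spots did not. Such gaps were common. Among all 1284 probes with 8 to 10 spots that were above background throughout, 37.4% showed one for the contralateral and 37.6% for the ipsilateral side, against 3 and 1 of the 10 enzyme probes of that kind. Between the sides 9.58% did, and none of the enzyme probes. These spots share 1 hybridisation, so they say nothing of the variation between rats.

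Other genes of the pathway were taken from 8 lists of 70 genes, of which 64 were matched on the array and 57 were detected. Hkdc1, Pdhx, Ogdhl, Slc25a12, Slc25a13 and Me3 were not analysed here. Of the 57 genes, 10 were above 0.25 and 9 below -0.25 on the contralateral side, and 9 and 5 on the ipsilateral side. These are 17.5% and 15.8%, and 15.8% and 8.77%, against 10.1% and 12.7%, and 14.2% and 11.2%, of the 11250 detected named genes. The medians of the 57 were 0.052 and 0.025. Beyond 1 there were 3 contralaterally and 1 ipsilaterally.

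Gpd1 was the gene of these lists beyond 1 on both sides. It encodes the cytosolic glycerol phosphate dehydrogenase, which takes a glycolytic triose to glycerol phosphate and reoxidises NADH. Its scaled log2 signal was 11.36 on the control, 12.38 on the contralateral and 12.45 on the ipsilateral array, with ratios of 1.02 and 1.09 and an error of 0.20. Both MCAO arrays stood above the control array, at 0.87 to 1.05 and 0.56 to 1.11 over the alternatives. Before scaling, its 2 spots read 3247 and 2931 on the control, 5875 and 5414 on the contralateral and 4672 and 4399 on the ipsilateral array. Gpd2, the mitochondrial partner of the same shuttle, had 9.34 on the control, 8.97 on the contralateral and 8.96 on the ipsilateral array, with ratios of -0.37 and -0.38 that kept their sign under every setting. The difference between Gpd1 and Gpd2 was 1.39 and 1.47 with an error of 0.29, whatever the common scaling factor. The shuttle list of 8 genes had medians of 0.027 and -0.047.

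The transporters of glucose, lactate and pyruvate had 8 genes with medians of 0.024 and 0.11. Of these, 50% were above 0 contralaterally and 62.5% ipsilaterally, against 51.8% and 53.4% of the detected named genes. Slc2a1, the glucose transporter of the blood-brain barrier and of glia, had a scaled log2 signal of 12.50 on the control, 12.88 on the contralateral and 13.01 on the ipsilateral array. Its ratios were 0.39 and 0.51 with an error of 0.20, and the ipsilateral one was -0.025 without scaling. Slc16a1, a monocarboxylate transporter, had 8.44, 7.90 and 7.91 on the same arrays, with ratios of -0.53 and -0.53 below 0 under every setting. Slc16a8, which in the brain belongs to the choroid plexus, had 5.62, 5.95 and 6.22 and the highest ipsilateral ratio of the list at 0.60. Slc2a3 and Slc16a7 of the same list, chosen after their values were seen, were below the control array on both sides. The contralateral and ipsilateral ratios were -0.50 and -0.15 for Slc2a3, the latter above 0 with 50 added, and -0.26 and -0.46 for Slc16a7.

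Of the other glycolytic isoenzymes, 10 of 11 were on the array and 7 were detected, and the medians of the 7 were 0.14 and 0.44. Eno3, the muscle enolase, had a scaled log2 signal of 9.82 on the control, 9.63 on the contralateral and 9.54 on the ipsilateral array and was lowest on both sides, at -0.19 and -0.28. Aldoc, the aldolase of astrocytes and of zebrin-positive Purkinje cells, had 17.53, 17.80 and 17.97 and was chosen after its values were seen. Its ratios of 0.27 and 0.44 were 0.015 and 0.0073 with quantile normalization, and the ipsilateral one was -0.091 without scaling.

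The enzymes that make and remove fructose bisphosphate signals for phosphofructokinase had 5 genes, 3 of them detected. Pfkfb4 had a scaled log2 signal of 6.57 on the control, 7.77 on the contralateral and 6.68 on the ipsilateral array, a contralateral ratio of 1.21. Its 2 probes disagreed, at 0.044 for the brighter and 2.37 for the dimmer one. The spot of the dimmer probe had a processed signal 1.52 times its median pixel signal on the contralateral array, against 0.77 times on the control array. Pfkfb1 had 4.79, 4.07 and 4.83 and was the lowest on the contralateral side at -0.72 with an error of 0.30, but the difference was -0.14 with 50 added and -0.16 with normexp. The medians of the 3 detected genes were -0.030 and 0.080.

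Pyruvate dehydrogenase is switched off by the Pdk kinases and on by the Pdp phosphatases. The list of 8 regulators had 7 on the array, and the 6 detected ones had medians of 0.082 and 0.10. Pdk3 had a scaled log2 signal of 7.95 on the control, 8.38 on the contralateral and 8.07 on the ipsilateral array, a contralateral ratio of 0.43 that was 0.25 with normexp, 0.27 with the median pixel signal and 0.28 without scaling. Pdpr had 3.85, 3.43 and 3.92, a contralateral ratio of -0.42 with an error of 0.41 that was above 0 with normexp and with 50 added. Pdk2, the main brain kinase of these, had 13.20, 13.34 and 13.36, and Pdk1, a kinase induced by hypoxia, 7.02, 6.87 and 6.85, with ipsilateral ratios of 0.16, below 0 without scaling and with spike-in probes, and -0.18, above 0 with normexp, with 50 added and on its brightest probe. Pdk4 was not well above background on any of the arrays.

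The other citric acid cycle enzymes, with cytosolic isocitrate dehydrogenase and succinate dehydrogenase among them, had 8 genes on the array, 7 within 0.25 on each side, and medians of 0.0045 and -0.011. Idh1, the cytosolic isocitrate dehydrogenase, was the exception. Its scaled log2 signal was 9.10 on the control, 8.77 on the contralateral and 8.76 on the ipsilateral array, with ratios of -0.33 and -0.35 that kept their sign under every setting. Its difference from Idh2 was -0.40 and -0.46 with an error of 0.29.

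The pentose phosphate pathway, which makes NADPH and ribose, had 7 genes with medians of -0.015 and -0.023. Pgls was lowest, with a scaled log2 signal of 9.69 on the control, 9.39 on the contralateral and 9.50 on the ipsilateral array, and Rpe highest, with 8.45, 8.55 and 8.57 and both ratios below 0 without scaling and the ipsilateral one also with spike-in probes. Glycogen and gluconeogenesis had 11 genes, of which the 10 detected ones had medians of 0.071 and -0.0042. Pygm, the muscle glycogen phosphorylase that astrocytes also express, had 9.13, 9.53 and 9.45 and ratios of 0.40 and 0.32, the latter -0.21 without scaling. Fbp1 had 4.83, 5.19 and 5.33, its ipsilateral ratio below 0 without scaling. Fbp2 had 6.11, 5.70 and 5.91, its ipsilateral ratio above 0 with normexp, with 50 added and with the median pixel signal. Pck1, chosen after its values were seen, was well above background on the ipsilateral array alone, where it was at least 3.18-fold higher than on the control array, or 2.2-fold without scaling. That bound sets its signal against the dimmest control spot still well above background. By the same bound, and also chosen after its values were seen, Gapdhs was at least 1.50-fold higher, or 1.04-fold without scaling. Pck1 and Gapdhs each rested on 1 dim spot, with ipsilateral scaled log2 signals of 4.79 and 3.71. The bound leaves out the error of that spot.

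**Figure D4:**
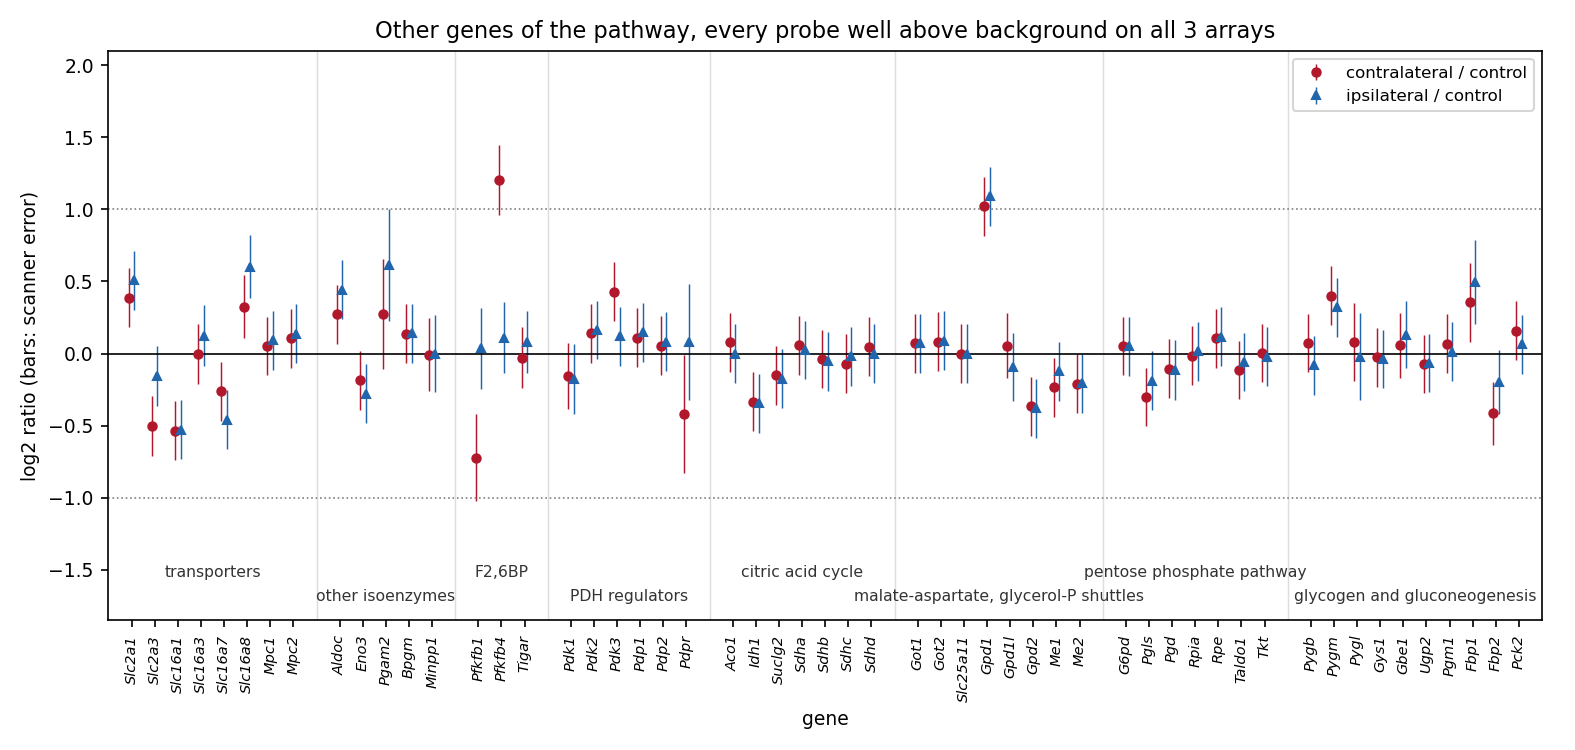
Log2 ratio to the control array, with the scanner's error as bars, of detected genes of the other pathway lists (3 of the 57 are not shown), for the contralateral (circles) and ipsilateral (triangles) side (PDH, pyruvate dehydrogenase; F2,6BP, enzymes that make or remove fructose bisphosphate signals). Gpd1 lies above the dotted line at 1 on both sides, and Pfkfb4 on the contralateral side.

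The labelled tissue was checked with marker genes. All 8 granule cell and all 7 Purkinje cell markers were detected. Cbln1, a granule cell gene, had a scaled log2 signal of 15.43 on the control, 15.34 on the contralateral and 15.35 on the ipsilateral array. Itpr1, a Purkinje cell gene, had 15.79, 16.01 and 15.95. On the log2 scale, the summed signal of the granule cell list differed from the control by -0.0040 and -0.019 on the contralateral and ipsilateral side, that of the Purkinje cell list by 0.13 and 0.11, that of 7 Bergmann glia and astrocyte genes by -0.15 and -0.14, that of 6 oligodendrocyte genes by -0.089 and -0.037 and that of 5 endothelial genes by -0.20 and -0.13. From these lists, Aqp4 of Bergmann glia and astrocytes had 15.25, 14.70 and 14.80, and Cldn5 of endothelium had 10.94, 10.75 and 10.79 on the control, contralateral and ipsilateral arrays. The sums do not stand for each gene, since every list held genes on both sides of 0. Contralateral ratios ran from -0.19 to 0.45 in the granule cell, -0.036 to 0.22 in the Purkinje cell, -0.73 to 0.39 in the Bergmann glia and astrocyte, -0.47 to 0.28 in the oligodendrocyte and -0.32 to 0.036 in the endothelial list. Ipsilateral ratios ran from -0.17 to 0.28, -0.039 to 0.25, -0.66 to 0.27, -0.48 to 0.24 and -0.27 to 0.43 in the same order. Some of the signs turned with the setting. In bulk tissue, fewer cells of a type and less RNA per cell cannot be told apart.

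Other marker lists differed more between the arrays than the enzymes did. The 7 choroid plexus genes, 6 of them detected and Kl not, had a summed scaled signal of 34905 on the control, 11150 on the contralateral and 77279 on the ipsilateral array, with Ttr at a log2 signal of 15.01, 13.27 and 16.20. Ttr made up 94.4%, 88.9% and 97.5% of these sums, and Clic6, Slc4a5 and Enpp2 were below the control array on both sides. The 7 microglia genes summed to 9433, 12974 and 16312, with C1qb at 11.86, 12.48 and 12.84. They were not uniform, since 3 of the 7 were below the control array contralaterally and 2 ipsilaterally. Among them was Aif1 on both sides (-0.29 and -0.097), and the list's medians were 0.28 and 0.083. Aif1, and Dcn in the next list, were chosen after their values were seen. The 6 leptomeningeal genes summed to 11674, 6429 and 8883, with Col1a2 at 12.88, 12.03 and 12.51, while Dcn was above the control array on the ipsilateral side (0.23, below 0 without scaling and with spike-in probes). The 5 blood genes, of which Hbb, Alas2 and Slc4a1 were not detected, summed to 2181, 1169 and 1067, with Hba-a1 at 10.98, 10.09 and 9.94. The 6 forebrain neuron genes, of which 3 were not detected, summed to 1195, 2157 and 1277; of these, Neurod6 had 10.03, 9.98 and 10.09, and Cck and Nrgn, chosen after their values were seen, 6.35, 9.91 and 6.63 and 5.52, 7.35 and 5.31. The part of these tissues in the enzymes' values was not tested.

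**Figure D5:**
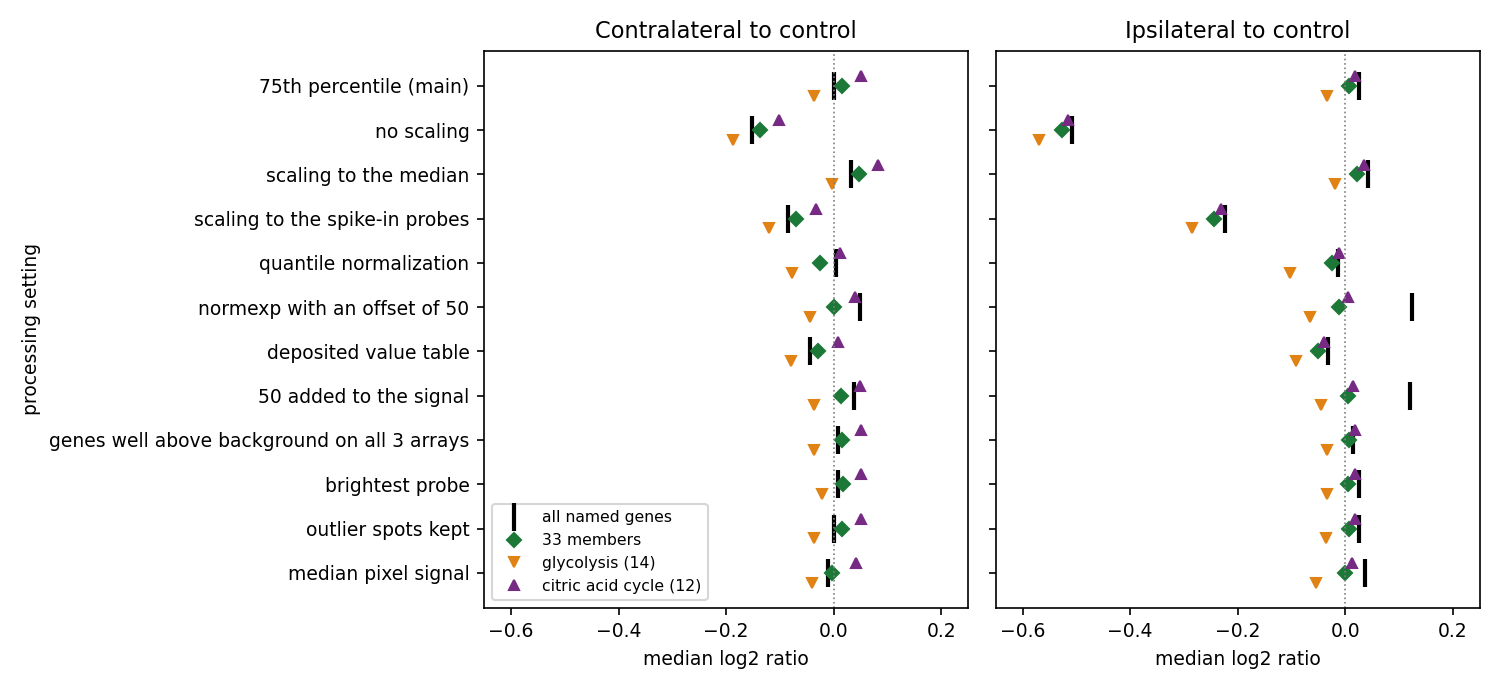
Median log2 ratio to the control array of all named genes (bars), the 33 enzymes (diamonds), the 14 glycolytic enzymes (downward triangles) and the 12 citric acid cycle genes (upward triangles) under each processing setting. All medians shift with the scaling, ipsilaterally to -0.51 for all genes and -0.53 for the enzymes without scaling, whereas normexp and 50 added raise only that of all genes (0.12). Settings that apply a common factor per array cannot alter the distance between glycolysis and the citric acid cycle.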

How the data were processed

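RNA of the 3 pools was labelled with Cy3 and hybridised to 1-colour Agilent arrays on 1 slide, scanned in 1 scan. Per the file headers, the authors quantified the spot intensity with Agilent Feature Extraction 12.1.0.3, which subtracted the background and spatial trends and did not scale between arrays. The deposited value table holds the same intensity times 1 factor per array, 1.12, 1.45 and 1.04 for the contralateral, ipsilateral and control array, on a linear scale without centring, with medians of 139, 139.6 and 147. According to the methods, control samples on the chip served for normalization, and whether the factors are that is not stated.

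The log2 intensity was shifted to a common 75th percentile, control spots aside. The 759 outlier spots were left out, and spots of a probe, then probes of a gene, were averaged. Gene symbols came from RefSeq (GRCr8) and covered 17622 of the 39957 accessions. The error of a ratio joins the scanner's spot errors of both arrays. The number of arrays limits the precision, and no p-value was computed.

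The members and lists were chosen with earlier results of these data known. Named were, per step and comparison, the enzymes with the largest and smallest ratio and all beyond 0.25, per further list the detected genes with the largest and smallest ratio to control and all beyond 1, and from each marker list the gene with the highest probe signal, which ranks probes and not abundance, except for a few genes of the further and marker lists whose values are not given here. There were 11 alternatives. Of these, 4 changed the scaling, namely none, the median, 8 spike-in probes or quantiles, and normexp corrected the background of median signals with an offset of 50. The others took the deposited values, added 50 to the signal, kept genes above background on each array, took the brightest probe or kept outlier spots. The last, the median pixel signal less local background, and the comparison with brighter genes, were added after seeing the data. The averaging and scaling were tested on simulated data, in which all 200 genes changed by a large known fold were recovered. That test does not reach ratios as small as those of the enzymes. Protein sequences were not used here. Software was R 4.3.3 (limma 3.58.1) and Python 3.11.15 (matplotlib 3.10.9, numpy 2.4.6, pandas 2.3.3).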

Additional observations from a re-analysis of the deposited data

Results flagged for a closer look

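Of the 6 detected choroid plexus genes, 3 differed in direction between the sides. Relative to control, the log2 ratio of Ttr was -1.73 contralaterally and 1.19 ipsilaterally, that of Folr1 was -0.87 and 0.93, and that of Kcnj13 was -0.67 and 0.21, the latter below 0 without scaling and with spike-in probes. The others, Clic6 (-0.55 and -0.31), Slc4a5 (-2.12 and -1.20) and Enpp2 (-0.60 and -0.064), were below control on both sides, Clic6 ipsilaterally not with normexp or with 50 added. Each value of the first 3 exceeds its scanner error, and no test of the difference between sides was possible, so it was not tested. No enzyme of glycolysis or the citric acid cycle had ratios of opposite sign that both exceeded their error.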

How the results depend on the processing

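No paired analysis was possible because each group was 1 array. Over the setting used and its 11 alternatives the median of the 33 enzymes ranged from -0.14 to 0.047 on the contralateral side, from -0.53 to 0.022 on the ipsilateral side and from -0.0014 to 0.38 between the sides. Without scaling it was -0.53 on the ipsilateral side and 0.38 between the sides, with 5 enzymes below -0.25 contralaterally and 32 ipsilaterally, and with 31 above 0.25 and 0 below -0.25 between the sides. With spike-in probes the ipsilateral median was -0.24, with 2 enzymes below -0.25 contralaterally and 15 ipsilaterally, and 2 above 0.25 between the sides. Both move all genes by 1 factor per array, and relative to all named genes the counts were the same as with the scaling used. The contralateral count below -0.25 was 0 with the median pixel signal, with normexp and when scaled to the median, and 2 with quantile normalization and with the deposited values. Quantile normalization also gave 1 enzyme below -0.25 on the ipsilateral side and 0 between the sides, where the brightest probe gave 2 and normexp gave 0 above 0.25. Adding 50 to the signals left 1 enzyme above 0.25 on the contralateral side. The cause was not tested for these. Of all named genes beyond 0.25, 41.5% were higher contralaterally and 59.7% ipsilaterally, and 24.3% between the sides. Without scaling the shares were 18.5%, 8.29% and 89.0%, with spike-in probes 27.3%, 20.8% and 62.5%, with quantile normalization 47.8%, 45.9% and 51.0%, with normexp 68.0%, 91.8% and 1.79% and with 50 added 62.8%, 90.7% and 2.19%. The median pixel signal gave 13.7% between the sides. In each comparison to control, 12 of the 33 enzymes kept their sign under every alternative. Of these, 9 contralaterally and 11 ipsilaterally were below 0, a sign that cannot turn without scaling or with spike-in probes.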
